A study of Homo sapiens with 18 samples.

Results

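The heavy polysomal RNA of GC7-treated and vehicle-treated DU145 cells was described across all 15747 genes of the authors' deposited table, without any selection of genes. DU145 is an established line of metastatic prostate carcinoma. The comparison rests on 6 of the 18 libraries of the series, 3 from cells given 40 µM GC7 for 24 h and 3 from cells given vehicle, all of 1 cell line. GC7 is an inhibitor of deoxyhypusine synthase. Per the labels' protocols, all cells received emetine (25 µg/ml for 10 min) before lysis, nuclei and then mitochondria were pelleted, and the remaining lysate was run on gradients of 15 to 50% sucrose. The cytoplasmic lysate, with 3 libraries per group, is used below only to show where polysomes differ from it. The labels do not say whether the 3 libraries of a group were separate cultures, and p-values may then reflect only technical variation among them.

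An mRNA that carries many ribosomes sediments deep into a sucrose gradient, so RNA of the heavy fractions is the message pool under most active translation. Its amount depends both on how much of an mRNA the cell holds and on how many ribosomes sit on each copy. eIF5A is a translation factor that helps the ribosome form difficult peptide bonds, best known for bonds between consecutive prolines, and assists elongation and termination more widely. It needs hypusine, an unusual amino acid made on eIF5A itself by deoxyhypusine synthase (DHPS) and deoxyhypusine hydroxylase (DOHH) from the polyamine spermidine.

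The table gives 1 mean normalized count, 1 log2 fold change and 1 standard error (SE) per gene and fraction, with no value per library. Depth per library is therefore unknown, no spread of single libraries can be shown, and every error below is the deposited SE of 3 against 3 libraries. The deposited fold changes are shrunken, that is, pulled toward 0 where the data are weak. The numerator is not named in the table, and directions read its category "UP" as higher with GC7. Read the other way, all directions would be swapped. The cell type matched its markers in part. Epithelial keratins were abundant, with mean normalized counts of 18621 for KRT8, 26823 for KRT18 and 44854 for KRT7 per the authors' deposited table. KLK2, KLK3 and TMPRSS2, genes typical of luminal prostate epithelium, are not listed in the table, and 4 of 12 prostate genes are. Of other cell types, 3 of 9 stromal, 1 of 7 endothelial and 2 of 8 leukocyte markers are listed. CD68, a lysosomal protein of macrophages and other cells, had a log2 fold change of 0.45 (SE 0.18, adjusted p = 0.0216) per the authors' deposited table. Those of COL1A1, COL3A1, CD14 and EGFL7 ranged from -0.11 to 0.15 there and none was called.

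GC7 changed the polysomal amount of about as many mRNAs upward as downward, mostly by less than 2-fold. At a deposited adjusted p under 0.05, the call used throughout, 1746 genes (11.1%) were called, 883 higher (5.61%) and 863 lower (5.48%). The median log2 fold change was 0.65 among genes called higher, or 1.57-fold, and -0.49 among genes called lower, or 0.713 times the vehicle level. Beyond the call, 165 of the higher genes exceeded 1 on the log2 scale and 49 of the lower ones lay under -1. Of those 49, 32 were not mitochondrial by name. The median over all genes was -0.0049 on the authors' normalization, which is relative and cannot show a change in total polysomal RNA. Relative scaling can itself place the median near 0, so this median does not show whether the bulk of the message pool shifted. Counts of list members below stand against the background shares of 5.61% higher and 5.48% lower and against that median.

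**Figure D1:**
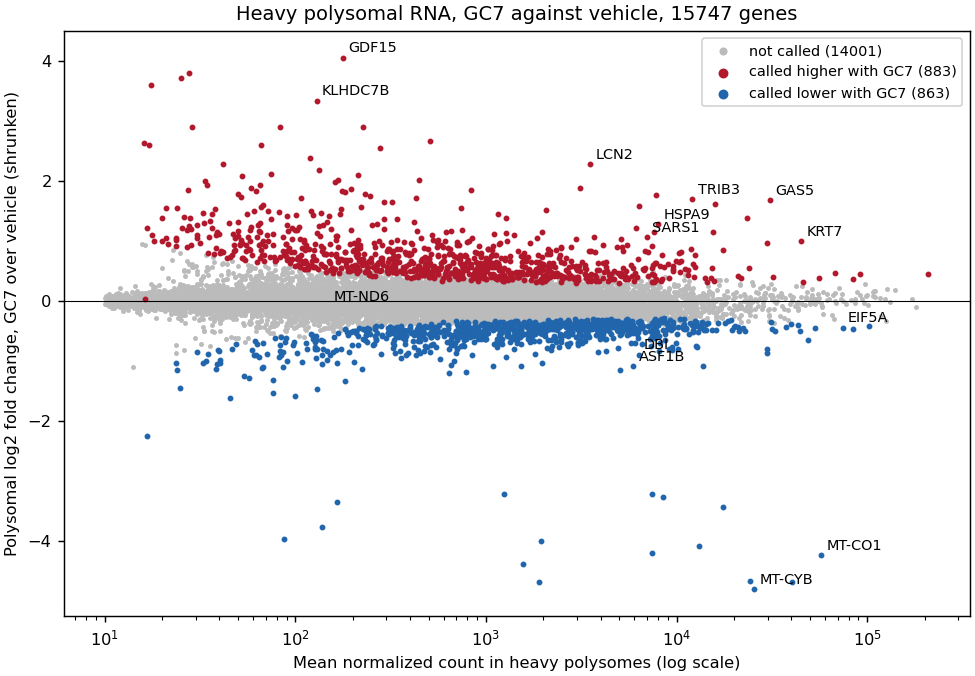
Polysomal log2 fold change (shrunken, GC7 over vehicle, as deposited) against the mean normalized count on a log axis, 1 point per gene, for 15747 genes. Most called genes lie between -1 and 1, while 12 of 13 mitochondrially encoded mRNAs, such as MT-CYB, lie below -3. The other, MT-ND6, lies at -0.09 and was not called.

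The largest rises belonged to secreted factors, stress regulators and a few tissue-specific genes with low counts. Among named genes with a mean normalized count of at least 100, KLHDC7B, a kelch-repeat protein (GRCh38 chromosome 22, 50545899 to 50551023), stood second to GDF15. Its log2 fold change was 3.35 (SE 0.31, adjusted p = 2.51e-25), or 10.2-fold, per the authors' deposited table. SPX, the peptide hormone spexin, had 2.40 (SE 0.31), and RAB39B, a small GTPase, 2.10 (SE 0.23) per the authors' deposited table. SLAMF7, a cell surface receptor best known from lymphocytes, had 1.86 (SE 0.25), BEST1, a chloride channel, 1.84 (SE 0.25), and the hair keratin KRT81 1.85 (SE 0.15, adjusted p = 2.82e-32) per the authors' deposited table. The level of KLHDC7B was low, at a mean normalized count of 129.5, and that of KRT81 was 837.6. The readthrough gene ABCF2-H2BE1, at 2.02 (SE 0.29) per the authors' deposited table, overlaps its neighbours, so its reads cannot be assigned with certainty.

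Among named genes with a mean normalized count of at least 100, the lowest values were those of 12 mitochondrially encoded mRNAs, between -4.80 and -3.22 per the authors' deposited table, and 3 nuclear genes made up the rest of the lowest 15. These were PRSS53, a serine protease, at -1.47 (SE 0.38, adjusted p = 0.000239), ATF7IP2, a chromatin protein, at -1.33 (SE 0.25) and INSIG1, which holds the sterol sensor in the endoplasmic reticulum, at -1.18 (SE 0.15) per the authors' deposited table. Mitochondrial mRNAs are translated inside mitochondria and not on the cytosolic ribosomes that form these polysomes, and mitochondria had been pelleted before the gradient. Of 13 mitochondrially encoded mRNAs, 12 were called lower, with a median of -4.195. In the cytoplasmic lysate 12 of the 13 were called lower as well, with a median of -3.637. MT-ND6 was not called, at -0.09 (SE 0.20, adjusted p = 0.6635) and a mean normalized count of 148.2, per the authors' deposited table. Genes with the MT- prefix made up 0.685% of the summed polysomal counts. Among complex IV subunits MT-CO1 was at -4.24 (SE 0.48) and MT-CO2 at -4.66 (SE 0.49), and among complex I subunits MT-ND1 was at -3.22 (SE 0.48), MT-ND2 at -3.27 (SE 0.48) and MT-ND4 at -3.43 (SE 0.44) per the authors' deposited table. Differences between these mRNAs were not tested. The 12S rRNA of the mitochondrial ribosome, MT-RNR1, stood at -0.02 (SE 0.19, adjusted p = 0.932) in polysomes against -2.42 in cytoplasm per the authors' deposited table.

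**Figure D2:**
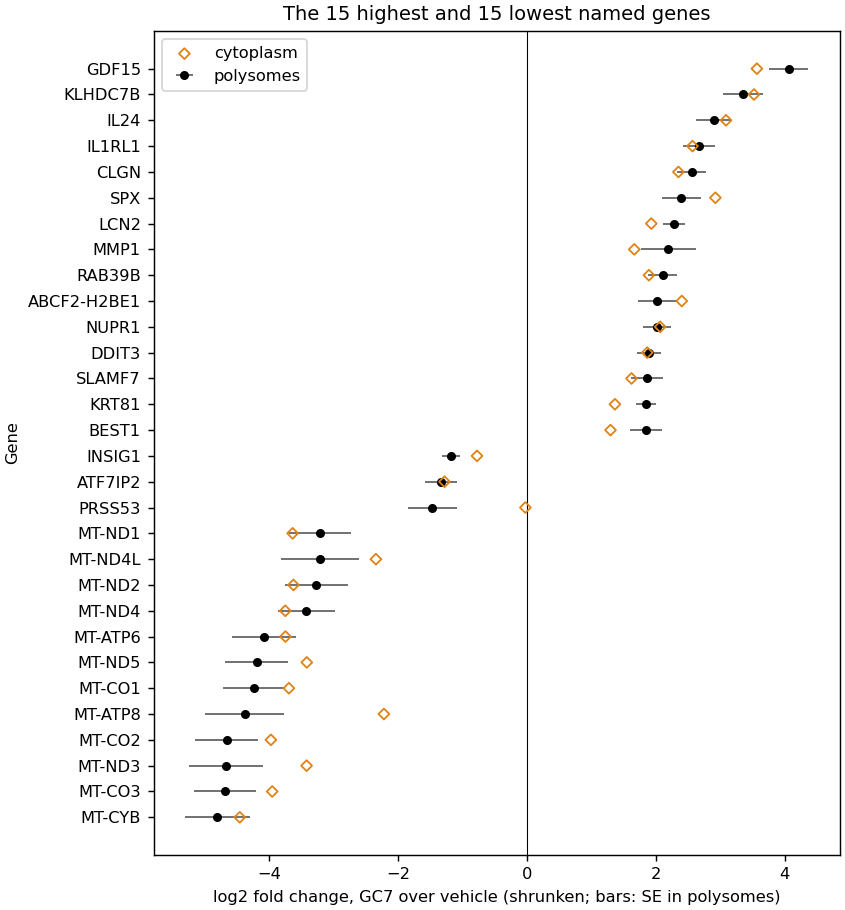
Log2 fold changes (GC7 over vehicle, shrunken, as deposited) of the 15 highest and 15 lowest named genes, with black points and SE bars for polysomes and open diamonds for cytoplasm. Rises reach 4.06, the 12 mitochondrial mRNAs lie at or below -3.22 in polysomes, and PRSS53 lies at -1.47 in polysomes and -0.03 in cytoplasm. The difference of PRSS53 was not tested, because no unshrunken cytoplasmic value was recovered for it.

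The integrated stress response is the program in which stress kinases slow initiation through eIF2 while the transcription factor ATF4 switches on genes for amino acid supply and for feedback. Most of its regulators rose on heavy polysomes. Of 16 transcription factors and feedback genes, 11 (68.8%) were called higher and 2 lower, with a median of 0.94. NUPR1, a stress-induced chromatin protein, had a log2 fold change of 2.02 (SE 0.22), and DDIT3, the factor CHOP, 1.90 (SE 0.18, adjusted p = 1.31e-22) per the authors' deposited table. TRIB3, a pseudokinase that restrains ATF4 and AKT, had 1.70 (SE 0.15), and DDIT4, an inhibitor of mTORC1, 1.63 (SE 0.17) per the authors' deposited table. PPP1R15A, the phosphatase subunit GADD34 that restores initiation, had 1.03 (SE 0.14), and the factors ATF3 and CEBPG had 0.99 (SE 0.18) and 0.90 (SE 0.13) per the authors' deposited table. The 2 members that fell were ATF5, at -0.80 (SE 0.17, adjusted p = 2.43e-05), and ATF4 itself, at -0.37 (SE 0.14, adjusted p = 0.02) with a mean normalized count of 39824, per the authors' deposited table. Both are known for upstream reading frames that govern their translation. The cytoplasmic value of ATF4 was -0.21 (adjusted p = 0.417) per the authors' deposited table.

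ATF4 binds DNA with C/EBP partners at sites often written TGATGCAA. This sequence was searched on both strands in the window from 250 bases before to 50 bases after the start of each gene in the RefSeq table (GRCh38.p14), of which 11258 matched a measured gene. The motifs here were chosen after the values were seen, and a match is not evidence of binding. It occurred in 55 promoters (0.489%), and in 0.923% of all 27305 promoters of the table. Of those 55 genes, 14 (25.5%) were called higher and 4 (7.27%) lower, with a median log2 fold change of 0.05. In the stress and amino acid lists 10 of 57 promoters (17.5%) held it, 7 of them (70%) in genes called higher, and in the cell cycle lists 0 of 147. With or without the site, 30 of these 57 genes were called higher, and the shares were not compared by a test. The following windows show the match, in capitals, in 6 genes called higher, each read 5′ to 3′ on the strand of the gene.
AARS1: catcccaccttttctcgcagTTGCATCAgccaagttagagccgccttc
CHAC1: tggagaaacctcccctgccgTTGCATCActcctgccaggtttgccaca
GOT1: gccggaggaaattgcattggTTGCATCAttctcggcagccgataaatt
MTHFD1L: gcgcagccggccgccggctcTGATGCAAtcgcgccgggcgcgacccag
IL20RB: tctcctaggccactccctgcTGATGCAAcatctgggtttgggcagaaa
FUT1: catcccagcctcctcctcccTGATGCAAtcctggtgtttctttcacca

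BCL2A1, a survival gene that was called lower, held the same letters 63 bases before its start (chr15:79971232-79971279, minus strand).
BCL2A1: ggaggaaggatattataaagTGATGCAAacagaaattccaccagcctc

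Capitals reading TTGCATCA are the same site on the opposite strand. The window of AARS1, alanyl-tRNA synthetase, is chr16:70289666-70289713 (minus strand), with the match 187 bases before the start. CHAC1, which degrades glutathione, has it at chr15:40953242-40953289 (plus strand), 209 bases before the start, and a polysomal log2 fold change of 1.07 (SE 0.13, adjusted p = 7.59e-15) per the authors' deposited table. The windows of GOT1, aspartate aminotransferase, and MTHFD1L, a mitochondrial folate enzyme, are chr10:99430795-99430842 (minus strand) and chr6:150866337-150866384 (plus strand). GOT1 had 0.85 (SE 0.20) and MTHFD1L 0.72 (SE 0.17) per the authors' deposited table. IL20RB, a receptor subunit for cytokines of the IL-20 family that include IL24, has its window at chr3:136957887-136957934 (plus strand) and rose by 1.45 (SE 0.14, adjusted p = 3.27e-22) on the log2 scale per the authors' deposited table. FUT1, a fucosyltransferase, shares its site with FGF21, a secreted metabolic hormone that starts in the opposite direction, both at chr19:48755450-48755497. FUT1 stood at 1.46 (SE 0.22) and FGF21 at 2.64 (SE 0.73, adjusted p = 0.000665), the latter at a mean normalized count of only 16.1, per the authors' deposited table.

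Amino acid synthesis, import and tRNA charging had calls mostly in the same direction. Of 21 genes of serine, folate and proline synthesis, 10 (47.6%) were called higher and 2 lower, with a median of 0.29. ASNS, asparagine synthetase (GRCh38 chromosome 7, 97851677 to 97872542), was 3.02-fold higher, with a log2 fold change of 1.59 (SE 0.25, adjusted p = 1.28e-09) per the authors' deposited table. ALDH1L2, a mitochondrial folate enzyme, had 1.54 (SE 0.25) per the authors' deposited table. PHGDH and PSAT1, successive enzymes of serine synthesis, had 0.82 (SE 0.24) and 0.85 (SE 0.18) per the authors' deposited table. MTHFD2 and PYCR1, the most abundant members without a call, had 0.26 (SE 0.13) and 0.27 (SE 0.14) per the authors' deposited table. TYMS, thymidylate synthase, was among the members that fell and is also counted with deoxynucleotide synthesis below.

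Among 19 amino acid transporters, 6 (31.6%) were called higher and none lower, with a median of 0.08 as deposited and 0.31 unshrunken. SLC1A4, a neutral amino acid exchanger, had 1.21 (SE 0.24), SLC7A11, the cystine importer, 0.96 (SE 0.20), and SLC6A9, a glycine transporter, 0.77 (SE 0.17) per the authors' deposited table. Of 20 cytosolic aminoacyl-tRNA synthetases, which charge tRNAs, 9 (45%) were called higher and none lower, with a median of 0.33. WARS1 had a log2 fold change of 1.22 (SE 0.18), SARS1 1.07 (SE 0.16) and LARS1 0.83 (SE 0.17), while the abundant KARS1 and YARS1, not called, had 0.25 (SE 0.13) and 0.21 (SE 0.13) per the authors' deposited table. Of the 16 mitochondrial synthetases, 1 was called higher and 1 lower, IARS2 at 0.63 (SE 0.20) and CARS2 at -0.43 (SE 0.15) per the authors' deposited table.

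Secreted stress factors and cytokines rose in 12 of 24 measured members (50%) and fell in none, with a median of 0.34. Beside GDF15, IL24, IL1RL1 and LCN2, the list held STC2, a glycoprotein hormone, at 1.77 (SE 0.18, adjusted p = 1.48e-20), and CSF3, the granulocyte colony-stimulating factor, at 1.78 (SE 0.22), per the authors' deposited table. IL6 had 0.57 (SE 0.14) in polysomes and 1.14 in cytoplasm per the authors' deposited table. The abundant chemokines CXCL8 and CXCL2, not called, had 0.16 (SE 0.14) and 0.32 (SE 0.16) per the authors' deposited table. Of 19 NF-kB subunits and feedback genes, 3 (15.8%) were called higher and none lower. The kinase ligand and phosphatase list of the EGFR pathway had 5 of 24 (20.8%) higher and 1 lower. It included DUSP5, a nuclear ERK phosphatase, at 0.84 (SE 0.12), BTC, an EGFR ligand, at 1.21 (SE 0.29), and EGFR at 0.50 (SE 0.14) per the authors' deposited table. Of 24 immediate early genes, 4 (16.7%) were called higher and 1 lower, with KLF2 at 0.99 (SE 0.19) and JUN at 0.57 (SE 0.19) per the authors' deposited table.

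**Figure D3:**
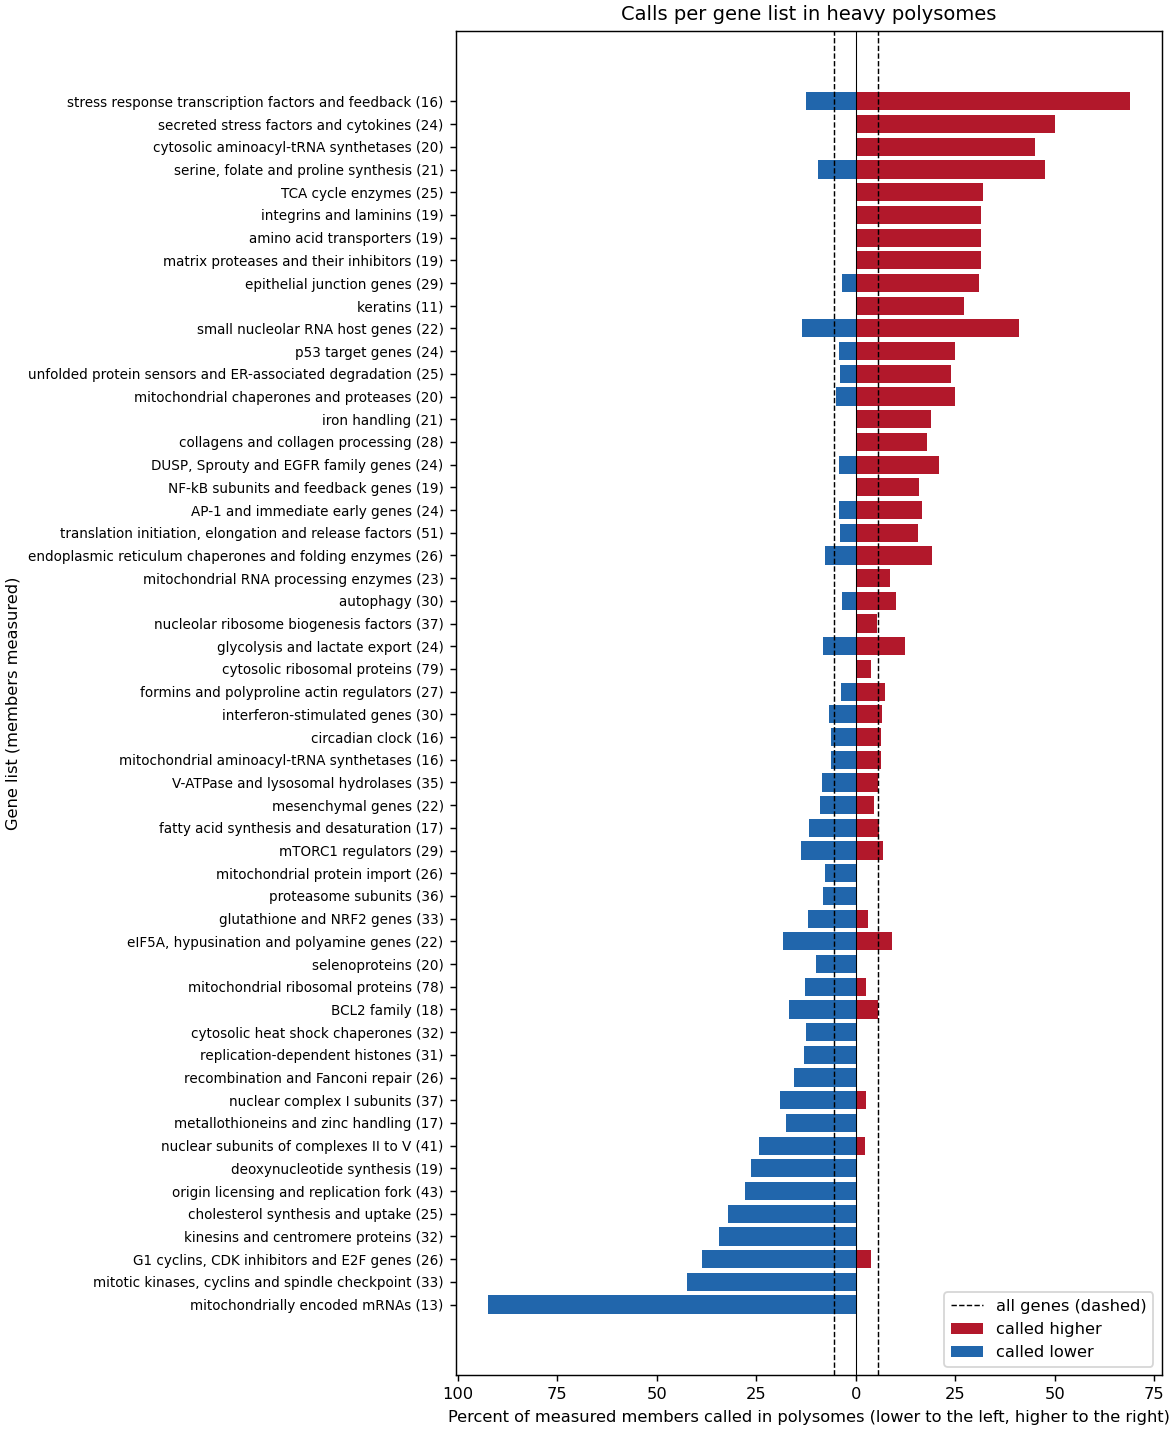
Share of the measured members of each gene list called lower (bars to the left) or higher (bars to the right) in heavy polysomes, for lists with at least 10 measured members, whose number stands in brackets. Dashed lines mark all genes, at 5.48% lower and 5.61% higher. Stress response regulators reach 68.8% higher, and mitotic kinases, cyclins and checkpoint genes 42.4% lower.

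Cytosolic ribosomal proteins changed little as a body, while the share of translation factors called higher lay above the background share. Of 79 cytosolic ribosomal proteins, 3 (3.8%) were called higher and none lower, with a median of 0.04, close to the background share. The 3 were RPL4 at 0.46 (SE 0.12), RPL3 at 0.38 (SE 0.13) and RPL10A at 0.32 (SE 0.13) per the authors' deposited table. RPL8 and RPS27, the most abundant members, had 0.19 (SE 0.14) and -0.01 (SE 0.13) per the authors' deposited table. Of 51 translation factors, 8 (15.7%) were called higher and 2 lower. EEF1A1, the factor that brings charged tRNA to the ribosome, was the most abundant gene of the table, with a mean normalized count of 209441, and had 0.45 (SE 0.14, adjusted p = 0.00377) per the authors' deposited table. Its paralog EEF1A2 had 0.60 (SE 0.22), EEF2, the translocase, 0.47 (SE 0.19), and PABPC1, the poly(A)-binding protein, 0.58 (SE 0.13) per the authors' deposited table. EIF4EBP2, a repressor of the cap-binding factor, fell by 0.52 (SE 0.15) on the log2 scale per the authors' deposited table. Reads of paralogs such as EEF1A1 and EEF1A2 may be shared between near-identical copies.

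Messages whose first base is a C followed by pyrimidines, the 5′ terminal oligopyrimidine tract, are controlled as a class by mTORC1. A start of C with 4 further pyrimidines, read from the RefSeq start sites, was present in 589 genes, of which 6.96% were called higher and 4.07% lower. Ribosomal proteins had it in 43 of 63 promoters, and none of these 43 was called. Translation factors had it in 10 of 40 promoters, with 3 of the 10 called higher, and host genes of small nucleolar RNAs in 6 of 19, with 2 of the 6 called higher. With or without the tract, 9 of 22 such host genes (40.9%) were called higher and 3 lower. ZFAS1 had 0.97 (SE 0.21) and SNHG32 1.16 (SE 0.21), whereas SNHG3 fell by 0.63 (SE 0.14) on the log2 scale per the authors' deposited table. In all, 7.66% of 914 long noncoding RNAs were called higher and 3.72% lower. Of 37 nucleolar ribosome biogenesis factors, 2 (5.41%) were called higher, near the background share of 5.61%, and none lower. The 2 were the helicase DDX10 at 1.18 (SE 0.14, adjusted p = 7.42e-15) and UTP4 at 0.38 (SE 0.14) per the authors' deposited table.

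The 3 nuclear lists with the highest shares called lower were all cell cycle lists. In these bulk libraries fewer cycling cells and less RNA per cell cannot be told apart. Of 33 mitotic kinases, cyclins and checkpoint genes, 14 (42.4%) were called lower and none higher, with a median of -0.31. MYBL2 and FOXM1, transcription factors that drive late cell cycle genes, had -0.74 (SE 0.15) and -0.62 (SE 0.15) per the authors' deposited table. UBE2C, an E2 enzyme of the anaphase-promoting complex, had -0.55 (SE 0.14) per the authors' deposited table. CDC20 and BUB3, the abundant members without a call, had 0.01 (SE 0.16) and -0.12 (SE 0.13) per the authors' deposited table. Of 32 kinesins and centromere proteins, 11 (34.4%) were called lower and none higher. They included CENPW at -0.93 (SE 0.19) and the kinetochore subunits SPC25 at -0.84 (SE 0.18) and SPC24 at -0.68 (SE 0.17) per the authors' deposited table.

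Genes of the entry into S phase followed. Of 26 G1 cyclins, CDK inhibitors and E2F genes, 10 (38.5%) were called lower and 1 higher. CDKN2C, the inhibitor p18 of CDK4 and CDK6 (GRCh38 chromosome 1, 50960745 to 50974634), had -1.08 (SE 0.16, adjusted p = 3.04e-10), and CCND3, a G1 cyclin, -0.70 (SE 0.13) per the authors' deposited table. The member that rose, CCND2, had 1.55 (SE 0.57) at a mean normalized count of only 20.9 per the authors' deposited table. Of 43 genes of origin licensing and the replication fork, 12 (27.9%) were called lower and none higher, with a median of -0.22. GINS2 and GINS4, subunits of the replicative helicase, had -0.88 (SE 0.15) and -0.66 (SE 0.18) per the authors' deposited table, while POLD2 and MCM7 had -0.03 (SE 0.12) and -0.00 (SE 0.15). In deoxynucleotide synthesis 5 of 19 (26.3%) were called lower and none higher, although the list's median was 0.0099. They included TK1, thymidine kinase, at -0.69 (SE 0.18), and DUT, which removes dUTP, at -0.45 (SE 0.15) per the authors' deposited table. Of 26 genes of recombination and Fanconi repair, 4 (15.4%) were called lower, led by XRCC3 at -0.65 (SE 0.13), and of 31 replication-dependent histones 4 (12.9%), per the authors' deposited table. Histone messages lack poly(A) tails and have many near-identical copies, so their values are uncertain.

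E2F factors, which drive these genes, bind sites written TTTNGCGC, where N is any base. On both strands of the promoter window, 341 of 11258 genes (3.03%) held it. Of those, 8.21% were called lower and 2.93% higher. In the cell cycle lists 24 of 147 promoters (16.3%) held it, 8 of them (33.3%) in genes called lower. With or without the site, 46 of these 147 genes were called lower, and the shares were not compared by a test. The matches are shown for 5 genes called lower.
E2F1: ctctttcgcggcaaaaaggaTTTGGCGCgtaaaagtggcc
CDC25A: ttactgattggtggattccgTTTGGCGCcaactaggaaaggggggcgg
ORC6: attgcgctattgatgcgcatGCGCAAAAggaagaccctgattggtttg
POLE: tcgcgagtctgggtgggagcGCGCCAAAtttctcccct
HELLS: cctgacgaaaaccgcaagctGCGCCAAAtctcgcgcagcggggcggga

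Capitals that begin with GCGC are matches on the opposite strand. The window of E2F1 is chr20:33686386-33686425 (minus strand), and E2F1 stood at -0.57 (SE 0.17, adjusted p = 0.00189) per the authors' deposited table. CDC25A, the phosphatase that activates CDK2, has its window at chr3:48188434-48188481 (minus strand) and had -0.50 (SE 0.18). ORC6, a subunit of the origin recognition complex, has it at chr16:46689516-46689563 (plus strand) and had -0.65 (SE 0.13) per the authors' deposited table. The windows of POLE, the leading strand polymerase, and HELLS, a chromatin remodeler, are chr12:132687343-132687380 (minus strand) and chr10:94545692-94545739 (plus strand), with log2 fold changes of -0.39 (SE 0.16) and -0.90 (SE 0.20) per the authors' deposited table. The CCAAT box, searched on both strands, stood in 36.3% of all measured promoters, in 46.9% of those called lower and in 36.2% of those called higher. In the cell cycle lists it stood in 79 of all 147 promoters (53.7%) and in 31 of the 46 (67.4%) of genes called lower. In the stress and amino acid lists it stood in 26 of all 57 promoters (45.6%) and in 18 of the 30 (60%) of genes called higher. The difference between these shares was not tested.

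Sterol synthesis had calls in 1 direction. Of 25 genes of cholesterol synthesis and uptake, 8 (32%) were called lower and none higher, with a median of -0.21. MVK, mevalonate kinase (GRCh38 chromosome 12, 109573255 to 109598125), had -1.09 (SE 0.14, adjusted p = 1.44e-13), and IDI1, which makes the isoprenoid building block, -0.78 (SE 0.15) per the authors' deposited table. SREBF2, the transcription factor of the pathway, and FDPS were not called, at -0.20 (SE 0.13) and -0.24 (SE 0.17) per the authors' deposited table. In fatty acid synthesis and desaturation 2 of 17 were called lower and 1 higher, with FASN at -0.56 (SE 0.19) and FADS3 at 0.48 (SE 0.15) per the authors' deposited table.

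Nuclear genes for mitochondrial proteins were called in both directions, depending on the list. Of 25 enzymes of the TCA cycle and its side reactions, 8 (32%) were called higher and none lower. PCK2, mitochondrial phosphoenolpyruvate carboxykinase, had 1.53 (SE 0.16, adjusted p = 5.01e-19), and ME2, a malic enzyme, 0.93 (SE 0.16) per the authors' deposited table. In the list of chaperones and proteases of mitochondria, 5 of 20 (25%) were called higher and 1 lower. LONP1, the matrix protease, had 0.83 (SE 0.17), and the chaperonin pair split, with HSPD1 at 0.50 (SE 0.24) and its small partner HSPE1 at -0.74 (SE 0.18), per the authors' deposited table. Among respiratory subunits, 7 of 37 (18.9%) complex I genes and 10 of 41 (24.4%) from the other complexes were called lower and 1 higher in each list. ATP5MF and ATP5MD, small subunits of ATP synthase, had -0.80 (SE 0.19) and -0.60 (SE 0.20) per the authors' deposited table. UQCRC1, a large core subunit of complex III, rose, at 0.40 (SE 0.16) per the authors' deposited table. Of 78 mitochondrial ribosomal proteins, 10 (12.8%) were called lower and 2 higher, and at an adjusted p under 0.01 these counts were 4 and 0. Of 23 mitochondrial RNA processing enzymes, 2 were called higher, PNPT1, a polynucleotide phosphorylase, at 0.72 (SE 0.14) and TFB1M, an rRNA methyltransferase, at 0.57 (SE 0.19) per the authors' deposited table.

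Adhesion and matrix genes were called mostly higher. Of 19 integrins and laminins, 6 (31.6%) were called higher and none lower. ITGA3 and ITGA6, integrin chains that bind laminins, had 0.67 (SE 0.19) and 0.52 (SE 0.21) per the authors' deposited table. Of 19 matrix proteases and inhibitors, 6 (31.6%) were called higher and none lower, and 2 at an adjusted p under 0.01, with the sheddase ADAM17 at 0.65 (SE 0.16) and MMP14 at 0.62 (SE 0.26) per the authors' deposited table. Of 28 collagens and processing enzymes, 5 (17.9%) were called higher and none lower, with LOXL4 at 0.95 (SE 0.24) and COL17A1 at 0.79 (SE 0.22) per the authors' deposited table. Of 29 epithelial junction genes, 9 (31%) were called higher and 1 lower, with OCLN, a tight junction protein, at 0.60 (SE 0.18) per the authors' deposited table. Of 22 mesenchymal genes 1 was called higher, the hyaluronan receptor CD44 at 0.90 (SE 0.22) per the authors' deposited table, and 2 lower.

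The unfolded protein response protects the endoplasmic reticulum through the sensors ATF6, IRE1 and PERK. ATF6 had 1.02 (SE 0.20), ATF6B 0.62 (SE 0.14) and ERN1, which encodes IRE1, 0.64 (SE 0.18) per the authors' deposited table. EIF2AK3, which encodes PERK and was named after its value was seen, was not called, at -0.08 (SE 0.19, adjusted p = 0.694) per the authors' deposited table. In the list of sensors and degradation genes 6 of 25 (24%) were called higher and 1 lower, with a median of 0.05. Chaperones of the compartment had 5 of 26 (19.2%) higher and 2 lower, with HSPA5, the chaperone BiP, at 0.56 (SE 0.22), HYOU1 at 0.63 (SE 0.22) and MANF at -0.66 (SE 0.16) per the authors' deposited table. Cytosolic heat shock chaperones had none of 32 higher and 4 (12.5%) lower, among them HSPA8 at -0.45 (SE 0.22) per the authors' deposited table. Proteasome subunits had none of 36 higher and 3 lower.

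Of 22 genes of eIF5A, hypusination and polyamines, 2 were called higher and 4 (18.2%) lower. EIF5A itself was called lower, at -0.44 (SE 0.14, adjusted p = 0.0041), per the authors' deposited table. DHPS and DOHH were not called, at -0.0039 (SE 0.12) and -0.27 (SE 0.17), per the authors' deposited table. EIF5A2, the second eIF5A gene, had -0.66 (SE 0.31, adjusted p = 0.0249) and the EIF5A copy EIF5AL1 -0.63 (SE 0.16), whose reads may be shared with EIF5A, per the authors' deposited table. ARG2, the arginase that supplies ornithine, had 0.99 (SE 0.18), and the synthases SRM and SMS were not called, at -0.03 (SE 0.13) and -0.25 (SE 0.12), per the authors' deposited table. Of 24 p53 target genes, 6 (25%) were called higher and 1 lower. GADD45A, a growth arrest gene, had 1.15 (SE 0.14), and MDM2, the member called lower, -0.56 (SE 0.22, adjusted p = 0.0151) per the authors' deposited table. This list overlaps others, with SESN2 also among the mTORC1 regulators and BBC3 in the BCL2 family, and p53 activity was not tested. Of 18 BCL2 family genes, 1 was called higher, the death inducer BBC3 at 0.80 (SE 0.19), per the authors' deposited table. The 3 called lower were the survival gene BCL2A1 at -0.78 (SE 0.18), BCL2L12 at -0.39 (SE 0.14) and BAD at -0.35 (SE 0.15) per the authors' deposited table. The abundant MCL1 and BCL2L1 were not called, at -0.11 (SE 0.12) and 0.02 (SE 0.12), per the authors' deposited table. Metallothioneins were lower in 3 of 17 members of their list, with MT2A at -0.79 (SE 0.19) per the authors' deposited table. Of 33 glutathione and NRF2 genes, 4 (12.1%) were called lower and 1 higher, with PRDX1 at -0.49 (SE 0.17) per the authors' deposited table. In iron handling 4 of 21 (19%) were called higher, with TFRC, the transferrin receptor, at 0.81 (SE 0.17) per the authors' deposited table.

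The share called lower was highest among genes with short coding sequences. These bins were set after earlier results were known, and no test compares them. Among 12955 nuclear protein-coding genes with a coding sequence in GENCODE version 44, split into 6 bins by codon number, the shortest bin (25 to 226 codons, 2177 genes) had 14.4% called lower and 4% higher. The 3 bins with the longest sequences had between 2.83% and 3.16% called lower. The unshrunken median of the shortest bin was -0.16 in polysomes and -0.07 in cytoplasm, where 2.02% were called lower. The median count was 1820 in the shortest and 518.5 in the longest bin, and by count 12.5% of the most abundant of 6 bins were called lower against 1.62% of the least abundant, so length and abundance move together. Among genes with counts from 500 to under 2000 the shortest bin still had 11.6% called lower and the longest 3.3%. The 65 short ribosomal protein genes did not share this, with 1 called higher and none lower, and without them the share was 14.9%. Short respiratory and mitochondrial ribosomal genes had 26 of 109 (23.9%) called lower, and without both groups 14.4% of 2003 genes remained.

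Short genes that fell came from several functions. ASF1B, a histone chaperone (202 codons, GRCh38 chromosome 19, 14119512 to 14136613), had a log2 fold change of -1.08 (SE 0.14, adjusted p = 9.4e-14) per the authors' deposited table. PCLAF, which binds PCNA, had -1.03 (SE 0.17) and CKS2, a CDK subunit, -0.71 (SE 0.17) per the authors' deposited table. Outside the cell cycle, S100A10, a calcium-binding family protein, had -0.86 (SE 0.18), DBI, an acyl-CoA-binding protein, -0.89 (SE 0.19) and POLR2L, an RNA polymerase subunit, -0.79 (SE 0.19) per the authors' deposited table. These genes were chosen after their values were seen.

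**Figure D4:**
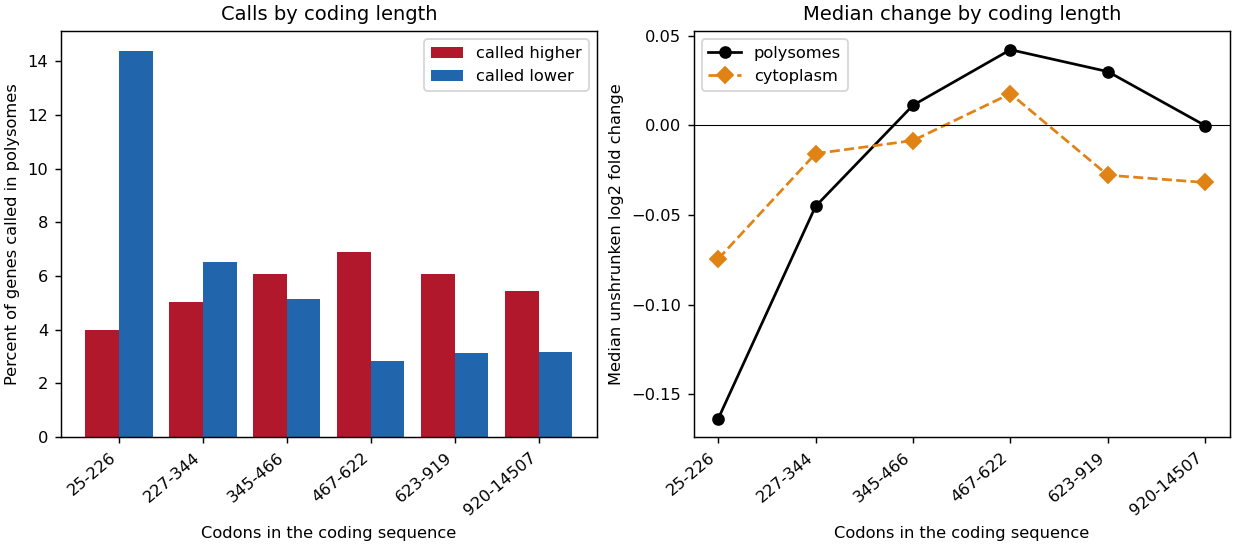
Share of genes called higher or lower in polysomes (left) and median unshrunken log2 fold change in polysomes and cytoplasm (right) for 6 bins of coding length, over 12955 nuclear coding genes. The shortest bin has 14.4% called lower and the lowest median in both fractions.

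Consecutive prolines are where eIF5A is best known to act, and genes rich in them had shares of calls near or below those of other genes. The share of genes called lower was 6.3% for the 9560 genes without 3 consecutive prolines and 2.29% for the 175 genes with at least 11 such sites, with medians of -0.0092 and -0.014. These sites lie mostly in long proteins. Within the 3 longer bins, genes without a site had 2.7% called lower and 6.52% higher, and genes with at least 4 had 3.01% and 3.18%. Of 208 genes with 7 or more prolines in a row, 4 were called lower and 9 higher. Among 27 formins and other actin regulators rich in proline, 2 were called higher and 1 lower, with a median of -0.0038. The following coding sequences hold some of their longest runs, proline codons in capitals with 8 codons to either side, from GENCODE transcripts.
FMNL2: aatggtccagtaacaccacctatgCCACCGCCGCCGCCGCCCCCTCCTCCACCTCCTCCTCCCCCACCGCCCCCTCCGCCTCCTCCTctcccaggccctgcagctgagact
DIAPH1: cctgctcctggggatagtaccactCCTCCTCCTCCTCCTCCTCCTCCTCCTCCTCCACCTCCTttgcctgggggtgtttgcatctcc
FMNL1: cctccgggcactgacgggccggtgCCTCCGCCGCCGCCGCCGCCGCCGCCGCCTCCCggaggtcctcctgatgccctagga

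All 3 belong to the formins, which nucleate actin filaments. FMNL2 has 21 prolines in a row from codon 553 and stood at -0.0038 (SE 0.14, adjusted p = 0.99) per the authors' deposited table. DIAPH1, with 13 from codon 608, had -0.10 (SE 0.16, adjusted p = 0.66) per the authors' deposited table. FMNL1, with 11 from codon 602, was called higher at 0.31 (SE 0.12, adjusted p = 0.0349) per the authors' deposited table. Another formin, INF2, was called lower at -0.61 (SE 0.13, adjusted p = 2.19e-05) per the authors' deposited table. Polysomal RNA cannot show slow elongation directly, since a stalled message can carry more ribosomes and not fewer.

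Most genes called in polysomes had a change of the same sign in the cytoplasmic lysate. In cytoplasm 361 genes (2.29%) were called higher and 307 (1.95%) lower, with a median unshrunken SE of 0.29 against 0.19 in polysomes. Of the polysomal calls, 282 higher genes were also called higher in cytoplasm, 31.9% of the polysomal and 78.1% of the cytoplasmic list. For lower genes it was 194, 22.5% of the polysomal and 63.2% of the cytoplasmic list, and no gene was called in opposite directions. Of the 883 genes called higher, 841 had a positive cytoplasmic value, and of the 863 called lower 817 a negative one. Across 11537 genes with a mean count of at least 100 in both fractions, unshrunken values had a Pearson r of 0.70, given as a description since genes are not independent.

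For no gene did the difference between the polysomal and the cytoplasmic change pass the adjusted threshold. The difference of unshrunken values was tested in 15669 genes by a normal test, assuming independent errors, and 0 (0%) passed Benjamini-Hochberg adjustment, with a smallest adjusted p of 0.9996. At an unadjusted p under 0.05 there were 335 genes (2.14%), 171 higher and 164 lower in polysomes than in cytoplasm, a smaller share than uniform p-values would give. The median SE of a difference was 0.35 on the log2 scale, and a difference that misses the threshold is not shown to be absent. The values below have passed no test of the difference. PHGDH had 0.82 in polysomes and 0.09 in cytoplasm (unadjusted p = 0.0039 for the difference) per the authors' deposited table. ITGA3 had 0.67 and 0.04, SERPINH1 0.91 and 0.13, and TYMS -0.83 and -0.01 per the authors' deposited table. Their unadjusted p for the difference was 0.0523, 0.0084 and 0.0683, so ITGA3 and TYMS missed 0.05 even before adjustment. All these pairs are shrunken values as deposited, while the normal test used unshrunken ones. MT-ATP8, with -4.38 and -2.22 per the authors' deposited table, had an unadjusted p of 0.001 for the difference.

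By list, stress regulators had an unshrunken median of 0.99 in polysomes and 0.86 in cytoplasm. Secreted factors had 0.42 and 0.90, cytosolic synthetases 0.43 and 0.15, integrins and laminins 0.25 and 0.16. Of the heat shock chaperones the medians were -0.06 and -0.31. These group differences were not tested.

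**Figure D5:**
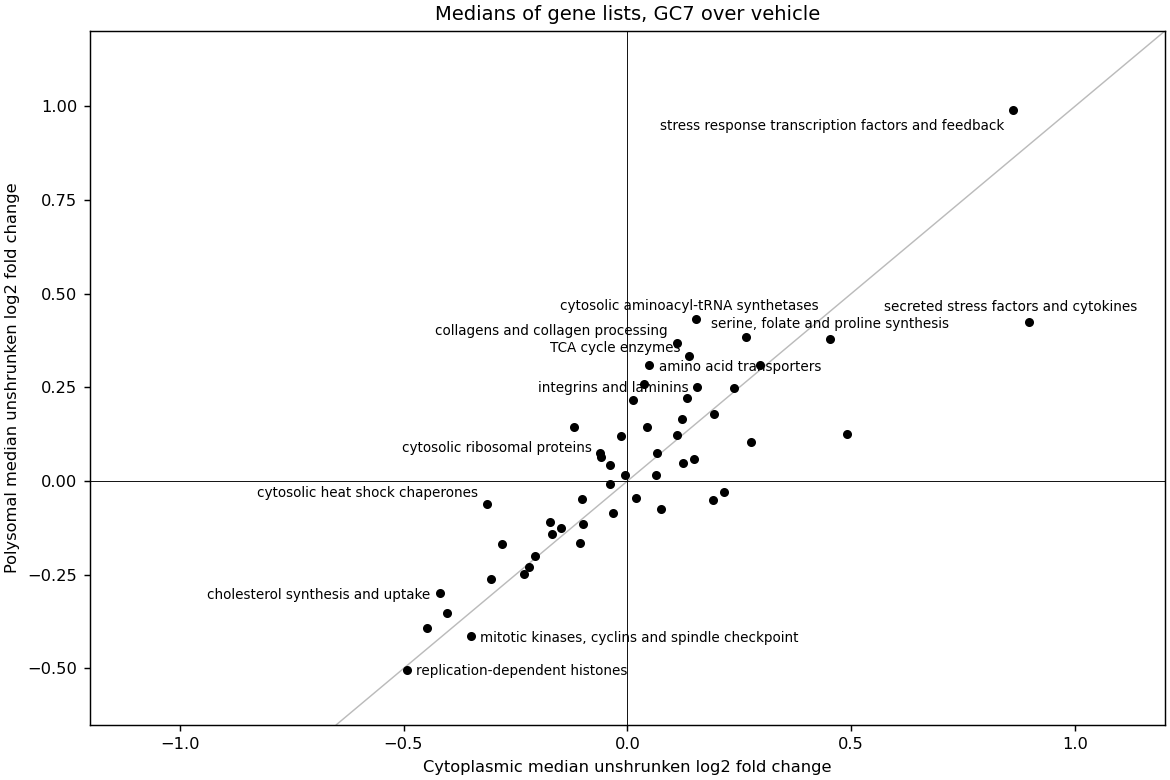
Median unshrunken log2 fold change (GC7 over vehicle) of each gene list with at least 10 measured members in polysomes against cytoplasm, without the mitochondrially encoded mRNAs, with a grey line of equal values. Most lists lie near the line, with the secreted factors below it at 0.42 in polysomes against 0.90 in cytoplasm.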

How the data were processed

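The 6 polysomal and, for comparison, 6 cytoplasmic libraries were grouped by the labels. STAR 2.7.8a, Salmon 1.4.0 and build GRCh38 are named per the submitters' processing notes, with no further detail on how they were used. Per the file headers, the authors' deposited table gives for each fraction a mean normalized count (scaled by the authors in a way not stated), a log2 fold change, the SE of that change, and p-values before and after adjustment. The p-values are the authors' own and were not recomputed, and no test on read counts was possible without values per library. The deposited log2 fold changes are shrunken. A Cauchy prior (scale 0.205 for polysomes and 0.195 for cytoplasm) was fitted to the deposited p-values and unshrunken values were computed. The recovered z lay within 0.1 for 99.5% and 97.4% of genes, and genes that missed by more than 0.5 (9 and 73) were dropped. The unshrinking and the difference test were tested on simulated data. Differences were simulated with independent normal errors of the estimated SE, so the simulation could not check that assumption. Coding features were planned from RefSeq proteins but read from GENCODE version 44 coding sequences (14353 symbols matched) and promoters from RefSeq (GRCh38.p14), with Python 3.11.15, pandas 2.3.3, numpy 2.4.6 and scipy 1.17.1. Of the names, 1373 contain a comma where a clone name has a point.

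The 58 gene lists and their members were chosen with earlier results of these data known. Named genes were the 15 highest and 15 lowest called genes with a mean count of at least 100 and an ordinary symbol, the 10 most abundant, up to 4 called members of each list by smallest p and its 2 most abundant members without a call, and 12 pathway genes. Other genes named in the text, such as ATF4, ATF5, PHGDH, STC2, HSPD1, UQCRC1, CCND2, MT-RNR1, the short genes, proline runs and promoter examples, were chosen after their values were seen.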

Additional observations from a re-analysis of the deposited data

How the results depend on the processing

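No paired analysis was possible because the deposited table holds no value per library, and leaving out single libraries was not run for the same reason. With adjusted p under 0.01, 494 genes were called higher and 438 lower, against 883 and 863 at 0.05, and requiring a change beyond 1 or -1 on the log2 scale left 165 and 49. Benjamini-Hochberg adjustment over all genes of the table gave 902 and 889, and a mean count of at least 100 gave 790 and 892. No difference between polysomes and cytoplasm passed under either alternative. Of 83 list counts above 0, 43 were within 1.5 times at the stricter threshold and 15 came to 0: translation factors called higher went from 8 to 2, complex I called lower from 7 to 2, genes of complexes II to V from 10 to 5, mitochondrial ribosomal proteins from 10 to 4, cholesterol genes from 8 to 5, replication fork from 12 to 5, recombination and Fanconi repair from 4 to 2, mitotic genes from 14 to 8, G1 and E2F genes from 10 to 6, heat shock chaperones from 4 to 0, proteasome subunits, metallothioneins and BCL2 family each from 3 to 1, and NRF2 genes from 4 to 1. Called higher, integrins and laminins and matrix proteases each went from 6 to 2, epithelial junction genes from 9 to 5, chaperones of the endoplasmic reticulum from 5 to 2, iron handling from 4 to 1, and glycolysis from 3 to 0, while the count of stress regulators was 11 at both thresholds. The other counts that moved by over 1.5 times were of 1 or 2 genes. Unshrunken values of the 333 named genes had the deposited sign, and 1 lost its call, but the prior was fitted to the deposited p-values, so this holds by construction and is no check of stability. Of 117 compared medians, 113 moved by less than the median SE of the list's genes. The 4 that moved were those of amino acid transporters (to 0.31), histones (to -0.50) and integrins and laminins (to 0.25) unshrunken, and of leukocyte markers (to 0.45) with a count of at least 100. The shortest bin kept its lower median in every alternative, from -0.16 to -0.097, of which the restriction by count and the removal of ribosomal and respiratory genes were chosen after seeing the data. Depth per library is unknown, so the smallest detectable change cannot be given.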
